A study of Mus musculus with 12 samples.

Results

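Nfe2l2, the gene of the transcription factor NRF2, and 9 enzymes that NRF2 is best known to control were read in the livers of mice exposed to secondhand smoke (SHS). The genes were taken by symbol and were Nfe2l2, Nqo1, Hmox1, Cbr1, Cbr3, Txnrd1, Gclc, Gclm, Srxn1 and Ephx1. They were measured on an Affymetrix whole-genome mouse expression array, on which the short probes for the transcripts of a gene form a probe set. Of the 45037 probe sets measured, 18 named 1 of these 10 genes, and none named a member together with another gene. In all, 18193 genes were named alone by at least 1 probe set. The livers came from male C57BL/6 mice on a standard diet, which were young adults when exposure began. SHS4m livers (4 arrays, replicates 66 to 69) were taken after 4 months of whole-body SHS, made by a smoking machine from reference cigarettes as mostly sidestream with some mainstream smoke. SHS4m+1m recovery livers, here called recovery livers (4 arrays, replicates 70 to 73), had the same exposure followed by 1 month of clean air. Control livers (4 arrays, replicates 1 to 4) came from mice that were sham-exposed to filtered air. The methods describe sham mice with and without the extra month, and the labels do not tell from which of these the control arrays came, so controls can differ in age by 1 month from 1 of the SHS groups. The labels give every array its own number and do not state in words that each holds a separate mouse, so the p-values measure the spread between these samples.

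NRF2 is held in the cytoplasm by KEAP1, which hands it to a ubiquitin ligase for degradation. Oxidants and electrophiles, such as the quinones and aldehydes in smoke, modify cysteines of KEAP1, and NRF2 then enters the nucleus and binds, with a small MAF protein, to antioxidant response elements near its target genes. The targets fall into enzymes that reduce quinones and carbonyls (NQO1, CBR1, CBR3), break down heme (HMOX1), hydrolyse epoxides (EPHX1), make glutathione (GCLC and GCLM) and keep thioredoxin and peroxiredoxins reduced (TXNRD1, SRXN1). Because the protein is controlled mainly by its stability, the level of Nfe2l2 mRNA is not a reading of NRF2 activity.

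Signals were deposited on a linear scale on which the trimmed mean of each array is 500. A floor of 32 was set before taking log2, so a gene near this floor can show only part of a change. Differences are differences of mean log2 signal from limma, fitted over all 45037 probe sets and the 3 groups together, and folds are the same values on the linear scale. A probe set is said to have risen or fallen, or to be called, where the Benjamini-Hochberg adjusted p was under 0.05. Where a gene had several probe sets, the brightest stands for the gene in counts of genes. In bulk tissue, fewer cells of a type and less RNA per cell cannot be told apart. The median signal was 65.1 to 74.2 on SHS4m arrays, 67.2 to 73.9 on recovery arrays and 72.4 to 78.1 on control arrays. The 3'/5' ratio of actin, which is higher in degraded RNA, moved with the groups. It was 3.9 to 4.64 in SHS4m livers, 4.1 to 4.36 in recovery replicates 70, 71 and 73, 8.82 in recovery replicate 72 and 3.24 to 3.9 in control livers, so that all recovery arrays lay above all controls. The same ratio of Gapdh was 4.52 in recovery replicate 72 and 2.24 to 2.95 on the rest, where the groups overlapped. The part of RNA quality in the member differences was not tested.

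After 4 months of SHS, 6 of the 10 genes were higher than in controls by their brightest probe set and none was lower. Cbr3 was 5.97-fold higher, Hmox1 4.79-fold, Cbr1 2.04-fold, Nqo1 1.92-fold, Ephx1 1.73-fold and Txnrd1 1.44-fold. The genes of glutathione synthesis, Gclc and Gclm, and the sulfiredoxin gene Srxn1 were not called, nor was the brightest probe set of Nfe2l2. Over all genes, 7.47% of brightest probe sets were called in this comparison, 3.73% as higher. Of the 18 member probe sets 8 were called, 7 higher and 1 lower, where 5.4% of all probe sets were called, 2.52% as higher and 2.87% as lower. The median log2 difference was 0.66 over the 10 members and -0.01 over all 18193 genes. For all 6 called genes the 4 SHS4m arrays lay above the 4 control arrays, which was the case for 7.24% of all genes. All SHS4m arrays lay below all control arrays for 3 of the 18 member probe sets, where 6.68% of all probe sets did. With an unadjusted p under 0.05 and a change of at least 2-fold, the study's threshold with its p taken as unadjusted, Cbr3, Hmox1 and Cbr1 passed as higher, where 1.18% of genes did. The study listed Hmox1, Cbr1, Cbr3, Nqo1, 1457117_at of Nfe2l2 and, for recovery, 1424486_a_at of Txnrd1 as changed on these same arrays, so their part of the counts is not independent evidence. Its list of genes changed both before and after recovery also names Hmox1, Cbr3 and Nqo1.

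**Figure D1:**
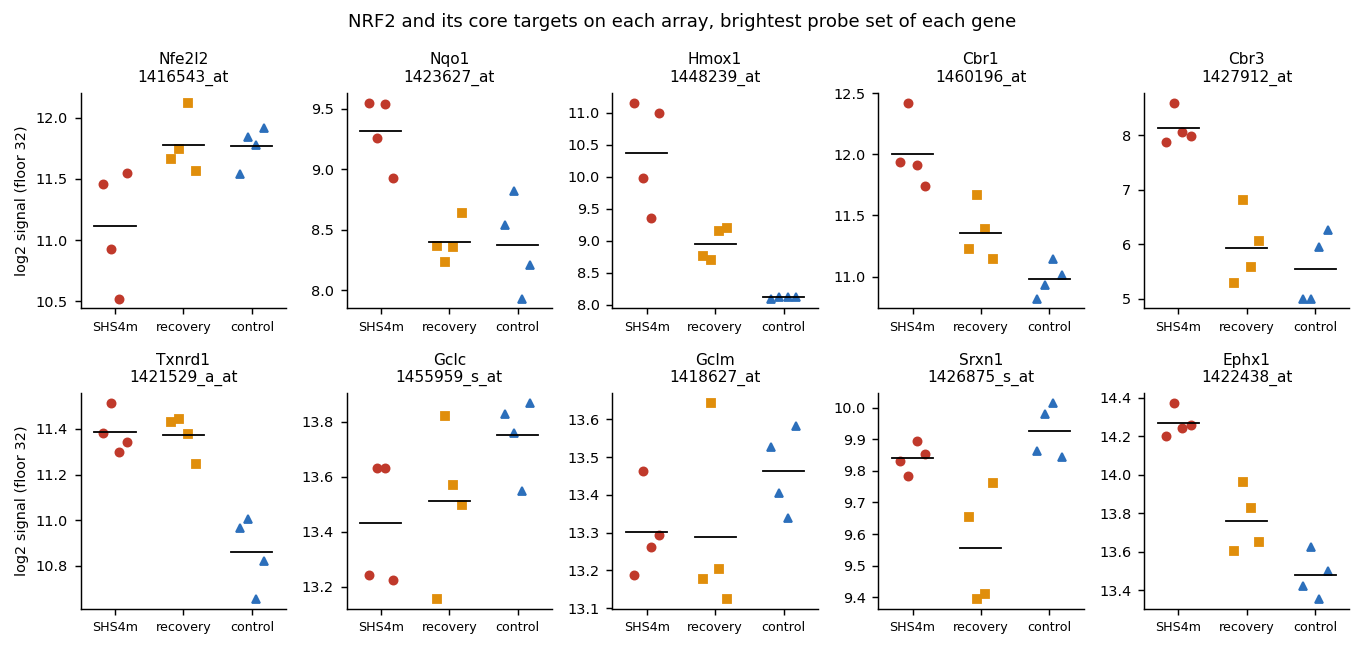
Log2 signal (y axis, values under 32 raised to 32) of the brightest probe set of each of the 10 genes on the 4 SHS4m, 4 recovery and 4 control arrays (x axis). Points are single arrays and horizontal bars are group means; the y axes differ between panels and do not start at 0. No SHS4m array overlaps the controls for Nqo1, Hmox1, Cbr1, Cbr3, Txnrd1 and Ephx1, where all 4 lie higher, and no recovery array does for Hmox1, Cbr1 and Txnrd1.

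The carbonyl reductases and the quinone reductase rose together. Cbr3 (probe set 1427912_at), which reduces carbonyls and quinones with NADPH, had signals of 235, 388, 266 and 252 in SHS4m livers. It had 38.9, 112, 47.8 and 66.3 in recovery livers, against 19.9, 14.4, 61.8 and 76.3 in control livers. The gene was thus low in controls, with 2 of 4 arrays under the floor, and well above it in every SHS4m liver. The difference between SHS4m and control livers was 2.58 on the log2 scale (standard error 0.388, 95% confidence interval 1.71 to 3.45, n = 4 each, adjusted p = 0.00584 from limma). With other floors it was 2.06 to 3.0, and the call was kept in every setting and with each array left out.

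Cbr1 (1460196_at), a broader carbonyl reductase of the cytosol, had signals of 3916, 5488, 3863 and 3417 in SHS4m livers. They were 2396, 3254, 2685 and 2268 in recovery livers and 1807, 1951, 2267 and 2066 in control livers. All SHS4m values lay above all recovery values, and all recovery values above all control values, the closest pair being 2268 in recovery replicate 73 and 2267 in control replicate 3. Cbr1 was 1.03 higher on the log2 scale in SHS4m livers than in controls (standard error 0.157, adjusted p = 0.0063), a call kept in every setting and with each array left out. Cbr1 and Cbr3 lie close together on chromosome 16, with 1 annotated gene, Gm5678, between them, which is not protein coding.

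Nqo1 (1423627_at), the gene of the reductase that turns quinones into hydroquinones in a single step, had signals of 750, 612, 743 and 486 in SHS4m livers. It had 330, 301, 328 and 398 in recovery livers and 373, 451, 244 and 296 in control livers. The lowest SHS4m array was above the highest control array, and the recovery arrays lay within the control range. The log2 difference between SHS4m and control livers was 0.94 (standard error 0.204, 95% confidence interval 0.49 to 1.40, adjusted p = 0.0274). The call was lost without control replicate 3 or 4 or SHS4m replicate 66, 67 or 68 (adjusted p up to 0.0752, log2 0.79 to 1.09 over all arrays left out in turn) and when only these 2 groups were fitted (0.0799).

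Hmox1 (1448239_at), which encodes the inducible heme oxygenase that opens heme to biliverdin, iron and carbon monoxide, had the widest spread of the risen genes within the SHS4m group. Its signal was 2288, 1013, 654 and 2039 in SHS4m livers and 435, 414, 566 and 587 in recovery livers, against 273, 277, 279 and 277 in control livers. The SD of the log2 signal was 0.856 in SHS4m livers, 0.257 in recovery livers and 0.0138 in control livers. Replicates 66 and 69 were the high SHS4m livers and replicates 67 and 68 the low ones, and all 4 were above every control. The log2 difference between SHS4m and control livers was 2.26 (standard error 0.352, 95% confidence interval 1.47 to 3.05, adjusted p = 0.00684), and the call was kept in every setting and with each array left out.

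Ephx1 (1422438_at), which encodes microsomal epoxide hydrolase, an enzyme of the hepatocyte endoplasmic reticulum that turns epoxides of smoke hydrocarbons into diols, was bright in all livers. Its signal was 18835, 21212, 19384 and 19599 in SHS4m livers. It was 12471, 15956, 14543 and 12871 in recovery livers and 10987, 12651, 10477 and 11598 in control livers. Its rise in SHS4m livers was moderate in size but had a narrow spread, with a log2 difference of 0.79 (standard error 0.0853, 95% confidence interval 0.60 to 0.98, adjusted p = 0.00129), and no array left out and no setting ended the call.

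Txnrd1, the gene of cytosolic thioredoxin reductase, is known to be transcribed from several start sites, and its 3 probe sets disagreed. The brightest, 1421529_a_at, had signals of 2669, 2925, 2516 and 2599 in SHS4m livers, 2763, 2783, 2664 and 2432 in recovery livers and 1999, 2055, 1612 and 1810 in control livers. Both exposed groups lay above all controls and overlapped each other. For 1424486_a_at the order was turned round, with 622, 631, 564 and 418 in SHS4m livers, 401, 417, 293 and 309 in recovery livers and 1023, 903, 813 and 853 in control livers. The third, 1424487_x_at, had 249, 219, 266 and 189 in SHS4m livers, 349, 167, 97.9 and 173 in recovery livers and 415, 380, 354 and 317 in control livers. The suffix _a marks probes shared by alternative transcripts of a gene and _x marks a set with probes that can also match other sequences, and the annotation used here does not place the 3 sets on the transcript.
In SHS4m livers the brightest Txnrd1 set was 0.52 higher than in controls (log2, standard error 0.0816, adjusted p = 0.00691), kept in every setting and with each array left out. The set 1424486_a_at was 0.70 lower (difference -0.70, standard error 0.16, adjusted p = 0.0347). That second call was lost without any 1 of the 8 SHS4m or control arrays (adjusted p up to 0.0894), with a floor at the 25th percentile of each array (0.0512), with each array centred on its median (0.0968) and with 2 groups fitted (0.0535). The set 1424487_x_at had a difference of -0.67 (adjusted p = 0.317), with all 4 SHS4m arrays below all controls.

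**Figure D2:**
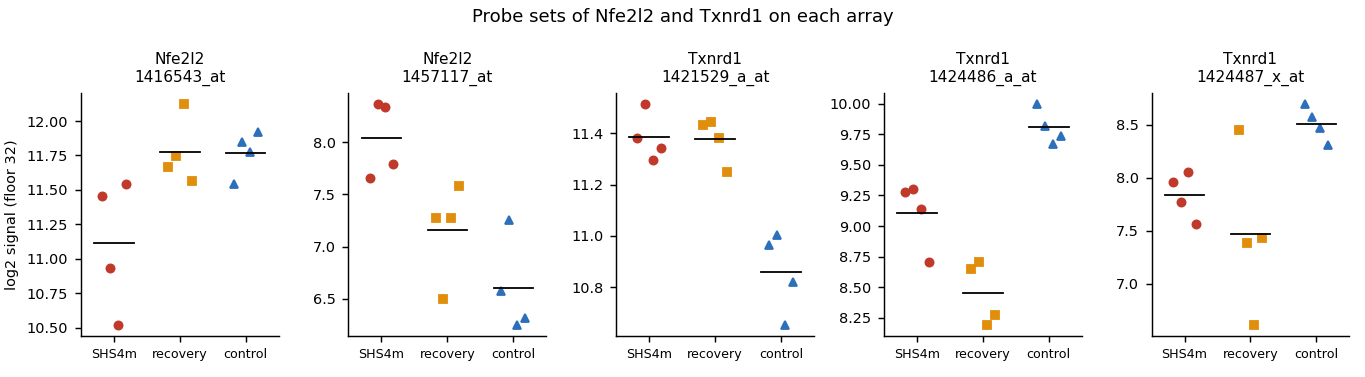
Log2 signal (y axis, values under 32 raised to 32) of the 2 probe sets of Nfe2l2 and the 3 of Txnrd1 on the 4 SHS4m, 4 recovery and 4 control arrays (x axis). Points are single arrays and bars are group means; the y axes differ between panels and do not start at 0. Within each gene the probe sets go opposite ways, with 1457117_at of Nfe2l2 and 1421529_a_at of Txnrd1 higher in SHS4m livers than in controls, and 1416543_at of Nfe2l2 and both other sets of Txnrd1 with lower means.

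Nfe2l2 itself was read by 2 probe sets that also differed in direction. The brightest, 1416543_at, had signals of 2809, 1951, 1469 and 2988 in SHS4m livers, 3246, 3434, 4467 and 3032 in recovery livers and 2984, 3676, 3507 and 3867 in control livers. Its mean was lower in SHS4m livers, with replicates 67 and 68 lowest, and the log2 difference of -0.66 from controls did not pass the test (95% confidence interval -1.15 to -0.16, adjusted p = 0.141). The dimmer set, 1457117_at, had 202, 331, 324 and 222 in SHS4m livers, 155, 90.5, 155 and 191 in recovery livers and 95.5, 153, 76.1 and 79.6 in control livers. It was higher in SHS4m livers than in controls (log2 difference 1.44, standard error 0.296, adjusted p = 0.0225). The call was lost without control replicate 1, 3 or 4 or SHS4m replicate 67 or 68 (adjusted p up to 0.0647). Within the SHS4m group both sets split the livers into the same pairs as Hmox1, replicates 66 and 69 being the higher for 1416543_at and the lower for 1457117_at. The arrays as a whole split into these pairs too. Their median signal was 74.1 and 74.2 in replicates 66 and 69 and 65.1 and 67.5 in replicates 67 and 68. The share of all genes with this split was not counted, and a link between these genes was not tested.

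Glutathione synthesis did not follow the reductases. Gclc encodes the catalytic subunit and Gclm the modifier subunit of glutamate-cysteine ligase, which carries out the rate-limiting step. The brightest Gclc set, 1455959_s_at, had signals of 9697, 12695, 12693 and 9573 in SHS4m livers and 14558, 13853, 11990 and 14965 in control livers, which overlapped (log2 difference -0.32, 95% confidence interval -0.66 to 0.02, adjusted p = 0.325). The other Gclc set, 1424296_at, had 5842, 9085, 8888 and 7066 in SHS4m livers and 11093, 10980, 9166 and 12042 in control livers. All 4 SHS4m values of this set were below all controls, and its difference of -0.50 was not called (95% confidence interval -0.89 to -0.12, adjusted p = 0.148).
For Gclm, 1418627_at had 9337, 11287, 9829 and 10044 in SHS4m livers and 11796, 10842, 10354 and 12272 in control livers, a difference of -0.16 with a 95% confidence interval of -0.42 to 0.10 (adjusted p = 0.574). The interval of the dimmer Gclm set, 1439050_at, was -0.20 to 0.01 around -0.10 (adjusted p = 0.349). The upper ends of both Gclm intervals lay at or under 0.10 on the log2 scale.
Srxn1, which encodes the enzyme that repairs overoxidised peroxiredoxins, had signals of 911, 881, 951 and 926 in SHS4m livers and 932, 1010, 1035 and 918 in control livers (1426875_s_at). The difference was -0.08 (95% confidence interval -0.27 to 0.10, adjusted p = 0.682). Its 3 dimmer sets had differences of -0.13, 0.01 and 0.42, and none was called.

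**Figure D3:**
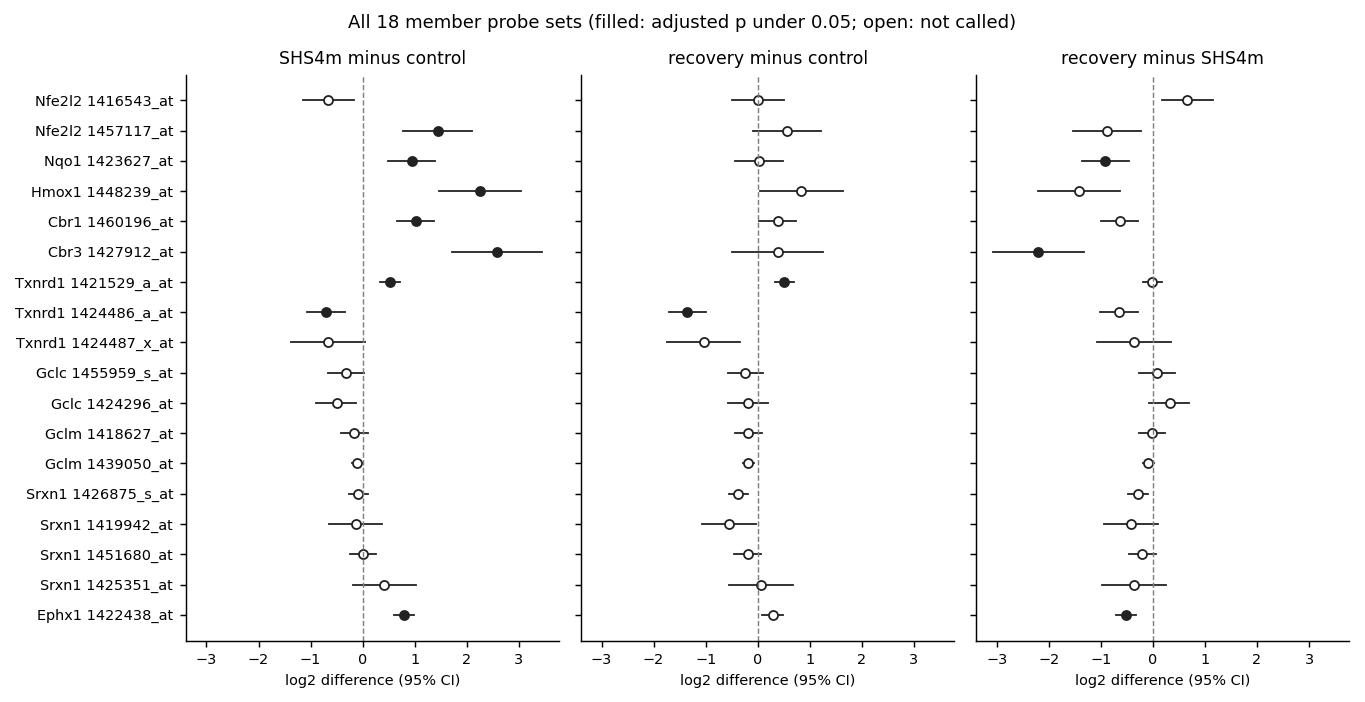
Log2 difference (x axis) of all 18 member probe sets (y axis) for SHS4m minus control, recovery minus control and recovery minus SHS4m. Points are the limma estimates over 4 arrays a group, lines their 95% confidence intervals, and filled points those with an adjusted p under 0.05. In the first panel 7 filled points lie right of 0 and 1 left of it, in the second 1 on each side, and in the third all 3 lie left.

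After 1 month in clean air, 2 of the 18 member probe sets differed from controls by the adjusted p, both of Txnrd1, where 2.07% of all probe sets did. The brightest Txnrd1 set was 1.43-fold higher in recovery livers than in controls (log2 0.51, standard error 0.0816, adjusted p = 0.0165). It lost the call with the 25th percentile as the floor (0.0659) and with 2 groups fitted (0.0681). The set 1424486_a_at was lower than in controls, with a difference of -1.35 (standard error 0.16, adjusted p = 0.00688), kept in every setting and with each array left out. Its difference from SHS4m livers, -0.65, was not called (adjusted p = 0.0722) except without SHS4m replicate 69 (0.0318). The third Txnrd1 set had a difference of -1.04 that was not called (adjusted p = 0.153), but was called without recovery replicate 70 (0.0194), whose signal of 349 stood above the 97.9 to 173 of the other 3 recovery arrays. Both of these sets, 1424486_a_at and 1424487_x_at, passed the study's threshold as lower in recovery livers, which 0.979% of all probe sets passed.
Hmox1 and Cbr1 stayed above the controls on every recovery array without being called. The log2 difference of Hmox1 between recovery and control livers was 0.84 (95% confidence interval 0.05 to 1.63, adjusted p = 0.332), and that of Cbr1 was 0.38 (0.03 to 0.73, adjusted p = 0.32). By brightest probe set, 3 of the 10 genes (Hmox1, Cbr1 and Txnrd1) had all recovery arrays above all control arrays and 1 (Srxn1) had them all below, where over all genes 4.8% lay all above and 4.76% all below.
Nqo1 differed from controls by 0.02 (95% confidence interval -0.43 to 0.48) and Cbr3 by 0.38 (-0.49 to 1.25) in recovery livers. Ephx1 differed by 0.29 (0.09 to 0.48, adjusted p = 0.147), with overlapping arrays. The brightest Srxn1 set had signals of 805, 673, 681 and 868 in recovery livers, all below the control signals given above. Its difference of -0.37 (standard error 0.0819, adjusted p = 0.0546) was called without recovery replicate 73 (0.0283). The dimmer Srxn1 sets differed by -0.56, -0.19 and 0.06, with arrays that overlapped the controls, and none was called. By brightest set, Gclc had signals of 9124, 14464, 12155 and 11573 in recovery livers and Gclm 9271, 12798, 9439 and 8930. Their differences from controls were -0.24 (adjusted p = 0.589) and -0.18 (adjusted p = 0.607). The dimmer Gclm set, 1439050_at, also differed by -0.18 (-0.29 to -0.07, adjusted p = 0.102), with all recovery arrays below all controls, and was not called. The dimmer Gclc set, 1424296_at, differed by -0.19 (adjusted p = 0.715), with overlapping arrays. The brightest set of Nfe2l2 differed by 0.01 (-0.49 to 0.50), and its highest array, 4467, was that of recovery replicate 72 with the high actin ratio. The dimmer Nfe2l2 set, 1457117_at, differed by 0.56 (-0.10 to 1.22, adjusted p = 0.479). The median log2 difference over the 10 members was 0.15, against 0.0 over all genes. The study names Hmox1, Cbr3 and Nqo1 among genes changed both before and after recovery. None of these was called here in recovery livers against controls, and the study's separate recovery list holds none of them as higher. The study describes the first list as made by comparing both exposed groups with controls, at its own threshold. It is thus not the same contrast as recovery livers alone against controls.

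Set directly against the end of exposure, recovery livers had less of 3 of the 10 genes, where 1.68% of genes and 1.22% of all probe sets were called as lower. The log2 difference was -2.20 for Cbr3 (standard error 0.388, adjusted p = 0.0213), -0.92 for Nqo1 (standard error 0.204, adjusted p = 0.0492) and -0.51 for Ephx1 (standard error 0.0853, adjusted p = 0.0172). The Nqo1 call stood next to the threshold. It was lost in 6 of 9 other settings (adjusted p up to 0.0742) and without any 1 of 9 arrays, control replicates 1 and 4, SHS4m replicates 66 to 68 and recovery replicates 70 to 73 (up to 0.128). The Cbr3 call was lost without SHS4m replicate 67 or 68 or recovery replicate 72 (up to 0.0583) and with a floor of 16 (0.0717). That of Ephx1 was lost with the 25th percentile as the floor (0.0614), with centring (0.0585) and with 2 groups fitted (0.051). Hmox1 had a difference of -1.42 (adjusted p = 0.0747), called with centring (0.046) and without SHS4m replicate 68 (0.0195), and Cbr1 of -0.64 (adjusted p = 0.0705). For 6 of the 10 genes (Nqo1, Hmox1, Cbr1, Cbr3, Srxn1 and Ephx1) all recovery arrays lay below all SHS4m arrays, which held for 5.1% of all genes. For Srxn1 this was the brightest set only, and the arrays of its dimmer sets overlapped. By brightest probe set, Nfe2l2 was the 1 gene with all recovery arrays above all SHS4m arrays, as in 6.21% of genes. The difference of this set was 0.66 (adjusted p = 0.186). The other Nfe2l2 set, 1457117_at, went the opposite way, with all recovery arrays below all SHS4m arrays. Its difference was -0.88 (adjusted p = 0.187), and neither set was called. The brightest Txnrd1 set differed by -0.01 (95% confidence interval -0.19 to 0.17). The comparisons with controls share the 4 control arrays, and this one shares arrays with both.

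The promoters of the members were searched for the core of the antioxidant response element, TGACNNNGC, and for its common variant TGAGNNNGC, on both strands. The windows reach from 250 bases before to 50 bases after a start site, from RefSeq on GRCm38.p6, and 8 of the 10 members had at least 1 (Txnrd1 had 3). Of 32851 such windows 12.4% held TGACNNNGC, 17.6% TGAGNNNGC and 27.8% either. Among the members, 4 of 10 windows held TGACNNNGC, those of Nfe2l2, Gclm and Srxn1 and 1 of the 3 of Txnrd1, and that of Srxn1 alone held TGAGNNNGC. The windows of Nqo1, Cbr1, Cbr3 and Ephx1 held neither, and Hmox1 and Gclc had no window. Txnrd1, which has a match, rose by its brightest set and is not among the windows shown. Shown are 2 genes that rose in SHS4m livers, Nqo1 (chr8:107403156-107403455, minus strand) and Cbr3 (chr16:93682969-93683268, plus strand), and 2 that were not called, Gclm (chr3:122245307-122245606, plus strand) and Srxn1 (chr2:152105274-152105573, plus strand). Each is written 5' to 3' on the strand of its gene, with every match in capitals.
Nqo1: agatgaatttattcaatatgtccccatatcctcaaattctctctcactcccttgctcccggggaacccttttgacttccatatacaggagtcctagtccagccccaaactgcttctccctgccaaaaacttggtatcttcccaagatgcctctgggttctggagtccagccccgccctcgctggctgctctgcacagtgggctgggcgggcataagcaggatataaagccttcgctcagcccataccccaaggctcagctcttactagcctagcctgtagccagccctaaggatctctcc
Cbr3: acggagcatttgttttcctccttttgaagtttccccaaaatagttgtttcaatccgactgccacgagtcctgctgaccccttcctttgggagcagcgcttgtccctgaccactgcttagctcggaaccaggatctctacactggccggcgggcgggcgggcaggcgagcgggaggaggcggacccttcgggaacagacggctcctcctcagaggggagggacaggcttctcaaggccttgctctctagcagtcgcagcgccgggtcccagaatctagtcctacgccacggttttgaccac
Gclm: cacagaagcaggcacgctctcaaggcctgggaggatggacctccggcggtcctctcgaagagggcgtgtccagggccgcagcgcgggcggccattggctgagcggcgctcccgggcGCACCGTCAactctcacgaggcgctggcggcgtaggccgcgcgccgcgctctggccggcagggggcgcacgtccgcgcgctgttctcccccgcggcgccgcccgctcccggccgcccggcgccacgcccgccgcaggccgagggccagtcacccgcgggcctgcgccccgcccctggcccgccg
Srxn1: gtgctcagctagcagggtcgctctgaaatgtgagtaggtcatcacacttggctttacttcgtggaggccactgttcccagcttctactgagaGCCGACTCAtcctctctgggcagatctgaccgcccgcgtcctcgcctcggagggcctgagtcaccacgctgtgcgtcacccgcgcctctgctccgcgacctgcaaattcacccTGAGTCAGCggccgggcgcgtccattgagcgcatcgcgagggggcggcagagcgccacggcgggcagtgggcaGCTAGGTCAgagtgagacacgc
Counted from the start site, with negative numbers before it, the first letter of the match GCACCGTCA of Gclm lay at -134. Srxn1 had GCCGACTCA at -158, TGAGTCAGC at -45 and GCTAGGTCA at 29. A match is a run of letters and not a measured site, elements are known to lie outside such windows, and a window without one says nothing of the factor.

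Of 47 other genes of the NRF2 pathway, 41 were read by a probe set that names them alone, and 10 were higher and 1 lower in SHS4m livers than in controls. Over all genes 7.47% were called in this comparison, 3.73% as higher. The median log2 difference of the list was 0.16, against -0.01 over all genes. The study listed Gstm1, Gstm2, Gstm3, Gsta2, Abcc4, Cyp1a1, Cyp2b10, Cyp2c55 and the Cyp2b9 set 1419590_at from these arrays too. Their counts here and among the receptor targets are thus not independent evidence. It also listed Osgin1, a gene of this list, as lower in SHS4m livers. Here Osgin1 had a difference of -0.86 from controls, in the same direction (95% confidence interval -1.58 to -0.14, unadjusted p = 0.0244 from limma). It was not called by the adjusted p (0.191), and at 0.551-fold it missed the 2-fold bound of the study's threshold. The 10 regulators on the list, among them the NRF2 inhibitor gene Keap1, the competing repressor gene Bach1 and the partner gene Maff, had none called. Maff was 2.01-fold higher in SHS4m livers (95% confidence interval of log2 0.14 to 1.87, adjusted p = 0.201), with overlapping arrays. In recovery livers it was 0.99 higher (adjusted p = 0.282), with all arrays above all controls, as in 4.8% of genes. The set of Rbx1, another regulator, was under the floor on all 4 SHS4m, all 4 recovery and 2 control arrays, so it could show little. Keap1 (1450746_at) had signals of 1989, 2103, 1739 and 2127 in SHS4m livers and 1830, 1844, 2007 and 1920 in control livers, a difference of 0.06 (95% confidence interval -0.07 to 0.20).
The glutathione transferases, which couple glutathione to electrophiles, had 5 of 10 members higher and 0 called as lower. Gstp1 (difference -0.29, adjusted p = 0.214) and Mgst1 (-0.32, adjusted p = 0.182) had all SHS4m arrays below all controls, as did 6.68% of all probe sets. Both were called as lower only with 2 groups fitted (0.0238 and 0.0317). Gstm3 (1427474_s_at) had 32075, 26009, 26971 and 28976 in SHS4m livers, against 6651, 5988, 6678 and 6201 in control livers (log2 2.16, standard error 0.122, adjusted p = 8.43e-05). Gstm2 rose by 1.66 (adjusted p = 0.000478), Gsta2 by 1.05 (0.0166), Gstm4 by 0.71 (0.000803) and Gstm1 by 0.56 (0.00194). These paralogs are similar in sequence, the Gstm3 set carries the suffix of shared probes and the Gstm1 set that of probes with other matches, so their values may not be separate.
Of the 8 genes of glutathione supply and export, 4 rose. Gpx2, a glutathione peroxidase, had signals of 129, 84.5, 116 and 145 in SHS4m livers and 28.3, 17.1, 27.4 and 56.6 in control livers, 3 of them under the floor (log2 1.66, adjusted p = 0.0167, lost without control replicate 3, 0.0503). The glutaredoxin gene Glrx rose by 1.17 (0.00288), and the export pump genes Abcc4 by 1.65 (0.00841) and Abcc3 by 0.88 (0.00776). Aox1, an aldehyde oxidase gene, was 0.36 higher (0.0374), a call lost without control replicate 1, 3 or 4, any SHS4m replicate or recovery replicate 70 (up to 0.095) and in 6 of 9 other settings (up to 0.125). The gene of malic enzyme, Me1, which supplies NADPH, fell by 0.79 (0.0354), lost without control replicate 1, 3 or 4, SHS4m replicate 66, 67 or 68 or recovery replicate 70 (up to 0.0946), with centring (0.0553) and with 2 groups fitted (0.0626). The 3 genes of iron and heme and the thioredoxin gene Txn1 had none called.
In recovery livers 1 of the 41 genes differed from controls, where 2.52% of all genes were called. This was the transketolase gene Tkt, 0.43 higher (adjusted p = 0.0281, lost in 4 of 9 settings and without control replicate 1 or 3 or any recovery replicate, up to 0.115). Against SHS4m livers, 7 of the 41 were lower and none higher, where 1.68% of all genes were called as lower. Gstm3 had signals of 5652, 6853, 4376 and 5750 in recovery livers and fell by 2.35 (adjusted p = 0.000103). Gstm2 fell by 2.01 (0.000526), Glrx by 1.03 (0.00886), Gstm4 by 0.84 (0.00109) and Gstm1 by 0.52 (0.00527), and Aox1 and Gsr, the gene of glutathione reductase, made up the rest. The Gsr call was lost in 3 of 9 settings (up to 0.117) and without SHS4m replicate 66 or recovery replicate 71 or 72 (up to 0.0545). That of Aox1 was lost in 3 of 9 settings (up to 0.0701) and without SHS4m replicate 66 (0.0538).

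**Figure D4:**
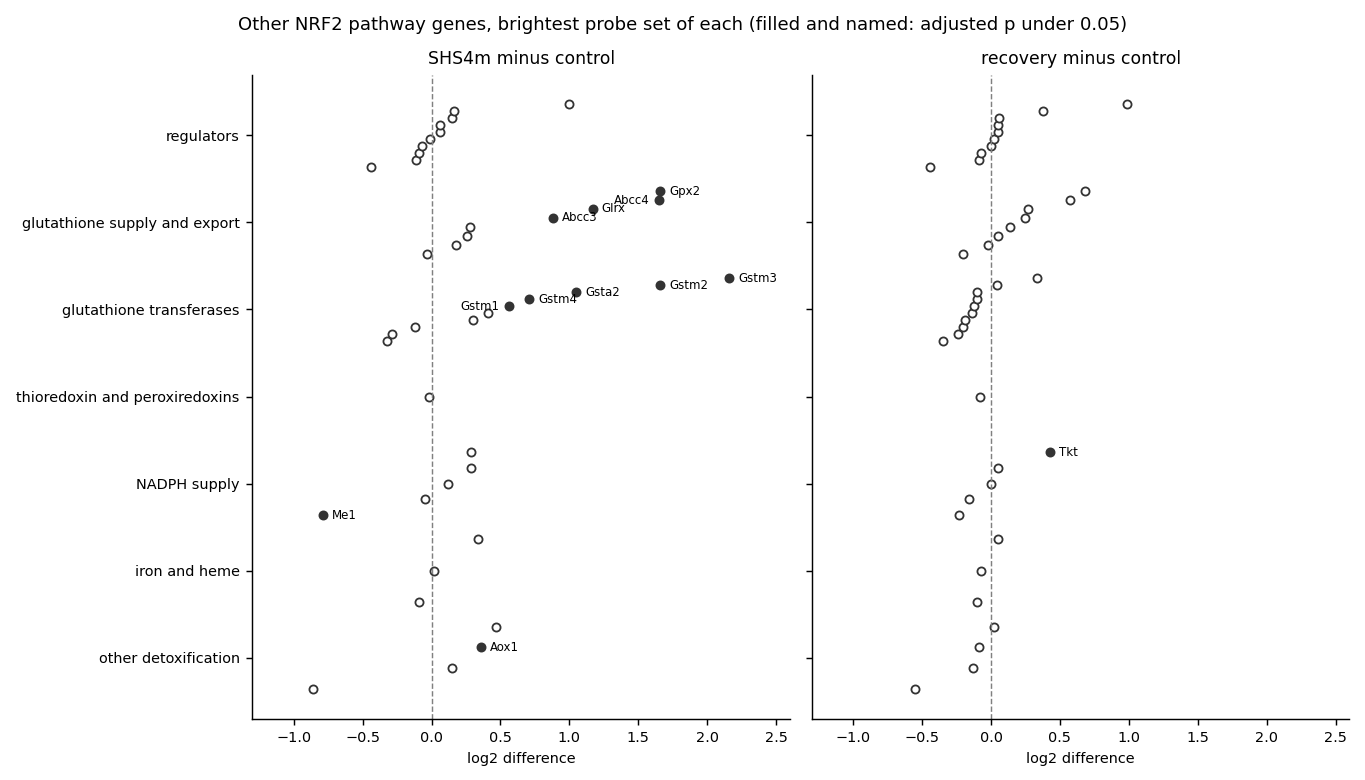
Log2 difference (x axis) of the 41 other NRF2 pathway genes, by role (y axis), for SHS4m minus control and recovery minus control. Each point is the brightest probe set of a gene over 4 arrays a group, its height within a row only separates points, and filled, named points have an adjusted p under 0.05. In the left panel 10 genes are filled to the right, 5 of them glutathione transferases, and Me1 to the left, while in the right panel only Tkt is filled.

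Some of these genes are also known to respond to other sensors of foreign compounds, and 9 targets of these were read in the same livers. Of 5 targets of the aryl hydrocarbon receptor, AHR, 3 were higher in SHS4m livers than in controls, where 3.73% of all genes were called as higher, Cyp1a1 by 1.77 (adjusted p = 0.0387), Tiparp by 0.75 (0.00318) and Cyp1a2 by 0.42 (0.00392). The Cyp1a1 call was lost without any 1 control replicate, without SHS4m replicate 66, 67 or 69 and without recovery replicate 70 (up to 0.0982). It was also lost with a floor of 16 (0.118) and with the 25th percentile as the floor (0.0711). Of 4 targets of the constitutive androstane receptor, CAR, 3 were higher, Cyp2b10 by 4.11 (8.36e-05), Cyp2b9 by 2.09 (0.033, up to 0.0823 without control replicate 1, 2 or 3 or SHS4m replicate 66 or 68, and 0.0786 with 2 groups fitted) and Cyp2c55 by 1.35 (0.000496). In recovery livers Cyp2b10 was still 1.49 higher than in controls (0.0145, 0.0776 with 2 groups fitted) and no other of these 9 genes was called. Nqo1 is a known AHR target as well as an NRF2 target, and the part of either receptor in the member values was not tested.

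Markers of liver cell types were read beside the members, since Hmox1 is also expressed by Kupffer cells. Of 42 markers read, 3 were higher in SHS4m livers than in controls and 2 lower, where 7.47% of all genes were called in either direction, and none was called in recovery livers against controls, where 2.52% were. The 3 higher ones are among the genes the study listed from these arrays. The scavenger receptor gene Marco, a marker of Kupffer cells, had signals of 530, 335, 1030 and 829 in SHS4m livers and 170, 239, 124 and 156 in control livers (log2 1.90, adjusted p = 0.0137). Clec4f, the marker most particular to Kupffer cells, had 1438, 1088, 1179 and 1309 in SHS4m livers and 1765, 1600, 1814 and 1960 in control livers (difference -0.51, adjusted p = 0.0173). The summed signal of the 8 Kupffer cell and macrophage markers was 9024 to 11882 in SHS4m livers, 10029 to 14752 in recovery livers and 11339 to 14233 in control livers. The sum of the 6 lymphocyte markers, of which Ptprc was the brightest, was lower in SHS4m livers than in both other groups. It was 588 to 781 in SHS4m livers, 1049 to 1154 in recovery livers and 900 to 1524 in control livers. The other calls were Pck1 (1.20, 0.0126), a hepatocyte gene also known to respond to fasting, the erythroid gene Slc4a1 (1.36, 0.00566) and the leukocyte gene Ptprc (-0.73, 0.0166). The summed signal of the 7 hepatocyte markers was 303526 to 331792 in SHS4m livers, 252169 to 399135 in recovery livers and 304128 to 353493 in control livers, which bears out the labelled tissue, and no marker was under the floor on every array. The part of these markers in the member values was not tested.

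Among 18387 probe sets that name 1 gene and were above 32 on all arrays, the pattern of Nqo1 was set against that of each other gene as the root-mean-square of the log2 differences over the 12 arrays, after each gene was set to its own control mean. The 5 nearest genes were Syt1 (0.211), Sh2b3 (0.224), Cdyl (0.227), Sec22c (0.227) and Ubac2 (0.229). Among the members, Ephx1 was nearest to Nqo1 (0.322), followed by Cbr1 (0.426) and Txnrd1 (0.442). Sh2b3 had signals of 585, 578, 598 and 582 in SHS4m livers, 350, 354, 318 and 390 in recovery livers and 337, 348, 292 and 324 in control livers, given as a description, since it was chosen for this pattern.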

How the data were processed

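Total RNA of 12 mouse livers was hybridised by the authors to Affymetrix whole-genome mouse expression arrays. The authors deposited intensity values on a linear scale, made in Affymetrix Expression Console, in which the trimmed mean of each array is 500 (the summarisation algorithm and software version are not given in the sources used here). Between 29.9% and 33.5% of the values of an array were under 32. Here 64 array control probe sets were left out, values under 32 were raised to 32, and log2 values of 45037 probe sets were fitted with limma 3.58.1 in R 4.3.3 (3 groups of 4 arrays, two-sided tests, Benjamini-Hochberg adjustment over all probe sets). The number of arrays limits the precision. Groups came from the labels, which give no batch. Genes were named from the platform annotation, in which 34945 probe sets name 1 gene, 932 several and 9160 none.

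All members were named, and of the other lists the genes called with a change of at least 2-fold. Keap1, Maff, Rbx1, Osgin1, Gstp1, Mgst1 and the remaining called genes were named beside them after their values were seen. The members and lists were chosen with earlier results of these data known. Alternatives were other floors (16, 64, the 25th percentile of the array), quantile normalization, centring, leaving out dim probe sets (34862 kept), fitting 2 groups, an intensity trend, array weights, and leaving out each array. The fit was tested on simulated data.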

Additional observations from a re-analysis of the deposited data

Results flagged for a closer look

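The signal of 3 genes differed between recovery and SHS4m livers by the direct test (limma, 4 arrays a group). The test has no controls matched to each group, so it compares the groups and not the effect of SHS in each. The difference was -0.92 for Nqo1 (adjusted p = 0.0492), -2.20 for Cbr3 (adjusted p = 0.0213) and -0.51 for Ephx1 (adjusted p = 0.0172), and in each of these genes all 4 recovery arrays lay below all 4 SHS4m arrays. Each of these calls was lost in at least 1 other setting, that of Nqo1 in 6 of 9 and without any 1 of 9 arrays.

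Of 54 groups of 4 arrays, 2 had an array that stood apart by Dixon's ratio, and chance gives about 1 in 20. For Gclm (1418627_at) recovery replicate 71 was the highest of its group, at 12798, with a ratio of 0.846. For the other Gclm set (1439050_at) SHS4m replicate 66 was the lowest, at 2859, with a ratio of 0.905, on a set whose 4 SHS4m signals span only 2859 to 3076.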

How the results depend on the processing

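With 4 arrays per group, the rise of Hmox1, Cbr1, Cbr3, Ephx1 and the brightest Txnrd1 set in SHS4m livers kept its call in all 9 other settings and with each of the 12 arrays left out, and no member difference that was called changed direction. No paired analysis was possible because the groups share no replicate numbers in the labels. In recovery livers against controls, the 2 member probe sets became 1 with the floor at the 25th percentile and with 2 groups only, and the 2 at the study's threshold became 1 with quantile normalization, median centring and array weights. The 1 other pathway gene called there became 0 with a floor of 16, the floor at the 25th percentile, dim probe sets left out and 2 groups only. In recovery against SHS4m livers the 3 member probe sets became 1 with a floor of 16, the floor at the 25th percentile and 2 groups only. The cause was not tested.

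Leaving out each array gave 5 to 8 member probe sets called in SHS4m livers against controls (5 without control replicate 3 or 4 or SHS4m replicate 67 or 68), 3 to 5 at the study's threshold and 9 to 12 other pathway genes. In recovery livers against controls it gave 2 to 3, 1 to 2 (1 without control replicate 1 or recovery replicate 72) and 0 to 2 (0 without control replicate 1 or 3 or any recovery replicate, 2 without control replicate 2). In recovery against SHS4m livers it gave 1 to 4 (1 without SHS4m replicate 67 or recovery replicate 72), 2 to 3 and 6 to 8. Centring each array on its median shifted all probe sets by 0.08 and moved the share of higher calls in SHS4m livers to 60.9%, against 46.7% without it, while the members had 7 higher and 0 lower calls. At the study's threshold that share was 52.3% with quantile normalization and 55.5% with centring, against 42.0%. In recovery livers it was 57.3% with centring against 42.4%, and at the study's threshold 40.9% and 45.1% against 28.8%. Signals near the floor, such as those of Cbr3 and Gpx2 in controls, limit the size of a fold.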
